A study of Papio anubis and Macaca mulatta with 6 samples.

Results

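Interstitial fibroblasts of the prepubertal testis, named C7 and IGFBP3 fibroblasts after 2 of the genes that chose them, were described here in olive baboons (Papio anubis) and rhesus macaques (Macaca mulatta). They were chosen by a rule on counted molecules in single-cell libraries, in which each RNA molecule carries a unique molecular identifier (UMI) and each droplet a barcode. A barcode was kept when it held at least 1000 UMIs, a UMI of at least 2 of the 6 stromal genes DCN, PDGFRA, TCF21, NR2F2, COL1A1 and COL3A1, fewer than 10 UMIs of the Leydig cell gene INSL3 and no UMI of the pericyte gene RGS5. Among these, a barcode was called a fibroblast when the summed UMIs of IGFBP3, CLEC3B, RARRES2, MGP and C7 exceeded the summed UMIs of STC1, DLK1, COL15A1, HAPLN1, LAMB1 and NRK. In the macaque tables PDGFRA and COL15A1 were not found by symbol, so that 5 stromal genes and 5 genes of the second sum were used there. The rule found 14081 fibroblasts among 44341 barcodes with at least 1000 UMIs, of which 3996 of 21693 were from the baboons and 10085 of 22648 from the macaques. In the second macaque C7 and RARRES2 gave most of the first sum, and IGFBP3 was low. The barcodes in which the second sum was the larger, called DLK1 and STC1 stroma below, numbered 654 in the baboons and 1427 in the macaques.

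The study profiled testis cells of 2 baboons and 2 rhesus macaques, all untreated, with tissue recovered at necropsy. Animal 1 of the baboons gave libraries 1A and 1B and animal 2 gave library 2, whereas macaque 1 gave library 1 and macaque 2 gave libraries 2A and 2B; values below keep these orders. The study's methods describe the baboons as a newborn and a 26-month-old animal and the macaques as 15 and 20 months old, while its deposited design text gives the same pairs of ages to the other species, so that no age is assigned to an animal here. Tissue was digested in 2 steps with a wash between them that was meant to remove interstitial cells, 5000 cells were targeted per library, and baboon library 2 was made with version 3 of the chemistry and the others with version 2. The wash limits what a recovered share of an interstitial cell can say about the intact testis. Each species is represented by 2 animals, so every p-value below rests on 2 animals.

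Fibroblasts of the testis interstitium lie between the seminiferous tubules, next to Leydig cells, vessels and macrophages. They build the collagen and proteoglycan matrix and release binding proteins, complement components and growth factors that act on their neighbours. C7 is a component of the terminal complement pathway, IGFBP3 carries insulin-like growth factors, RARRES2 is the precursor of the chemoattractant chemerin, MGP is a matrix protein that inhibits calcification, and CLEC3B (tetranectin) binds plasminogen. In the baboon assembly Panubis1.0 the C7 gene lies on chromosome 5 at 39722661-39804417 and IGFBP3 on chromosome 4 at 115526597-115535506. In the macaque assembly Mmul_10 C7 lies on chromosome 6 at 40770204-40857197 and IGFBP3 on chromosome 3 at 69448222-69457073.

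The baboon libraries held 31074298, 16875294 and 49803025 UMIs in total, and the macaque libraries 38106092, 19675453 and 18806225. Fibroblasts had a median of 1414, 1494 and 1881 UMIs in the baboon libraries and 1705, 1548 and 1534 in the macaque libraries. The other barcodes with at least 1000 UMIs had medians of 1989, 2081 and 3984 in the baboons and 1573, 1715 and 1728.5 in the macaques. The baboon fibroblasts were thus shallower than the other baboon barcodes, most of all in library 2. Libraries 1A and 1B shared 57 barcodes and libraries 2A and 2B shared 67, within the 37 to 136 that the other pairs of libraries of version 2 shared.

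Fibroblasts made up a small share of the first baboon's cells and a large share of the other animals' cells. They were 7.36%, 8.03% and 38.7% of the barcodes with at least 1000 UMIs in baboon libraries 1A, 1B and 2, that is 672, 403 and 2921 barcodes. In the macaques they were 42.1%, 46.0% and 47.2%, that is 4383, 2917 and 2785 barcodes. The exact (Clopper-Pearson) 95% interval of the first baboon, 7.17% to 8.05%, and that of the second, 37.6% to 39.8%, did not overlap, and those of the macaques, 41.2% to 43.1% and 45.7% to 47.5%, did not overlap either. The order of the macaques depended on the settings, and the first macaque had the higher share in 4 of them, at 42.1% against 35.4% with at least 2000 UMIs, 29.6% against 15.3% where the sums differed by 5 or more, 15.1% against 14.7% with at least 4 stromal genes and 36.2% against 35.7% without RARRES2. These intervals cover counting error within an animal and not the spread between animals, which was 23.2% ± 22.0 (SD, n = 2) in the baboons and 44.3% ± 3.14 (SD, n = 2) in the macaques. In the second baboon the kit version, the animal and any difference in age cannot be told apart.

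**Figure D1:**
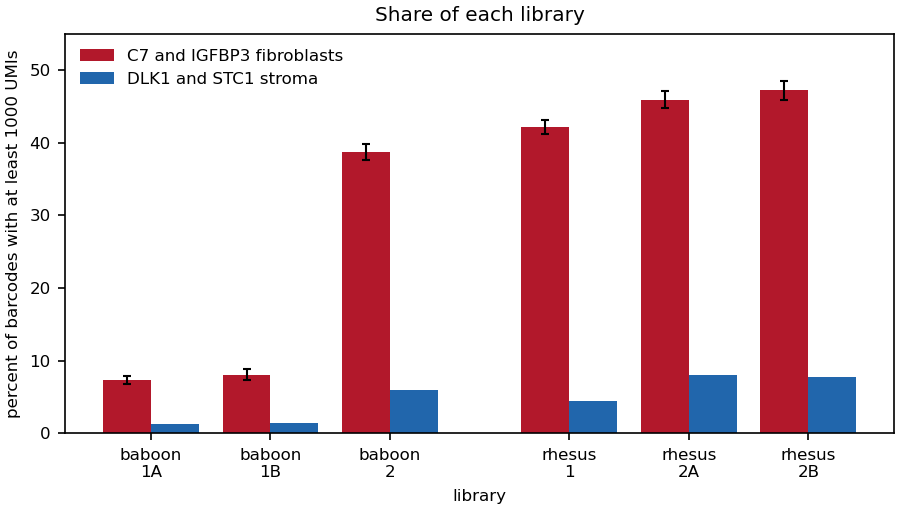
Percentage of barcodes with at least 1000 UMIs that were C7 and IGFBP3 fibroblasts or DLK1 and STC1 stroma in each library; the bars are single libraries and the error bars are exact 95% binomial intervals. Fibroblasts ranged from 7.36% in baboon library 1A to 47.2% in macaque library 2B.

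The balance between the fibroblasts and the DLK1 and STC1 stroma differed less than the share of fibroblasts between the baboons, and more than it between the macaques. There were 5.43 and 6.41 fibroblasts per barcode of DLK1 and STC1 stroma in the first and second baboon, and 9.53 and 5.90 in the first and second macaque. The first macaque stood highest and the other 3 animals lay closer together, but this order depended on the settings. With RARRES2 left out of the first sum, the macaque fibroblasts fell to 3763, 2263 and 2105 barcodes, and the ratio to 4.58 and 2.46. In the baboons the same change left 611, 376 and 2787 fibroblasts and ratios of 3.83 and 5.10, so that the second baboon then stood highest. Where the sums had to differ by 5 or more, the ratios were 19.7 and 11.2 in the baboons and 27.5 and 14.1 in the macaques, which turned the order of the baboons. With at least 4 stromal genes they were 6.53 and 5.79 in the baboons, which turned their order too, and 8.65 and 4.03 in the macaques. The second macaque then stood lowest.

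The genes that chose the cells did not contribute alike in the 2 species, and are given as a description without a test. C7 was at 1164, 1183 and 1658 counts per 1000000 UMIs (CPM) in the fibroblasts of the baboon libraries and at 1012, 1344 and 1303 CPM in those of the macaques, where CPM sums a gene over all fibroblasts of a library. IGFBP3 was at 1839, 1895 and 1111 CPM in the baboons and at 1137, 132 and 141 CPM in the macaques. C7 was thus high in every library, whereas IGFBP3 was high in both baboons and in the first macaque and was lower in both libraries of the second macaque. In the DLK1 and STC1 stroma, IGFBP3 was at 199.9, 173 and 145 CPM in the baboons and 119, 25.9 and 33.5 CPM in the macaques.

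RARRES2 stood at 1004, 964 and 689.8 CPM in the baboon fibroblasts and at 1781, 956 and 1023 CPM in the macaque fibroblasts. MGP was at 879, 869.7 and 494 CPM and 915, 301 and 339.8 CPM, and CLEC3B at 237, 261 and 303 CPM and 54.1, 26.3 and 17.1 CPM. MGP and CLEC3B were thus also lower in the second macaque than in the first. The stromal gene DCN (decorin, a collagen-binding proteoglycan) was at 3788, 3994 and 2329 CPM in the baboons and 6357, 2719.7 and 2803 CPM in the macaques.

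**Figure D2:**
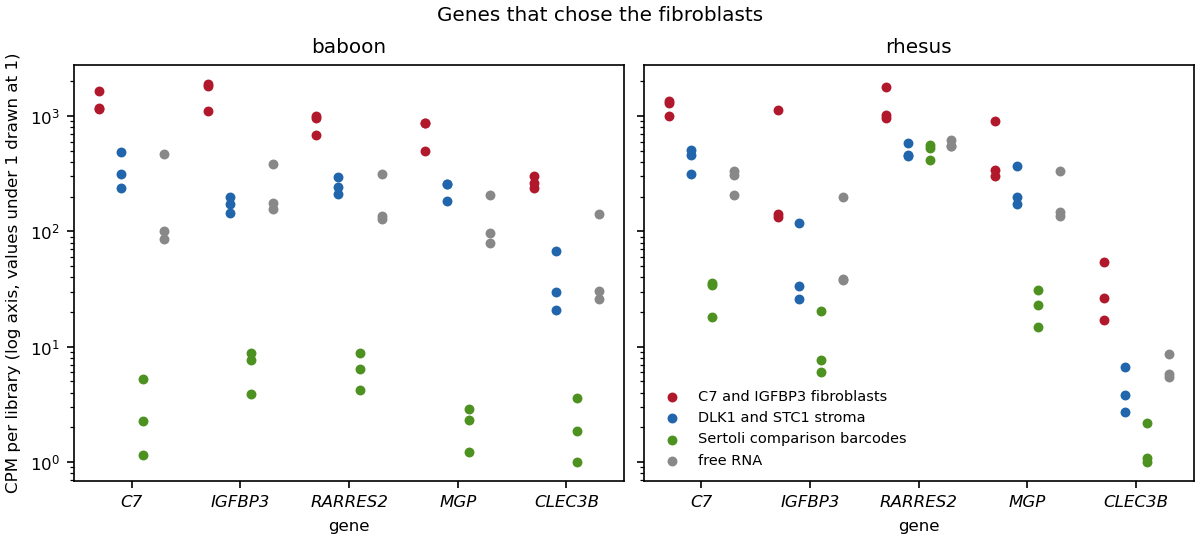
CPM of the 5 genes whose summed UMIs called a barcode a fibroblast, in fibroblasts, DLK1 and STC1 stroma, Sertoli comparison barcodes and barcodes with 10 to 100 UMIs (free RNA), 1 point per library on a log axis with values under 1 drawn at 1. C7 stayed above 1000 CPM in the fibroblasts of all 6 libraries, while IGFBP3 fell to 132 and 141 CPM in libraries 2A and 2B of the second macaque.

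The make-up of the summed UMIs followed the same lines. IGFBP3 gave 35.9%, 36.6% and 26.1% of them in the baboon fibroblasts and 23.2%, 4.79% and 4.99% in the macaque fibroblasts. C7 gave 22.7%, 22.9% and 39.0% in the baboons and 20.7%, 48.7% and 46.1% in the macaques, and RARRES2 gave 36.4%, 34.6% and 36.2% in the macaques. By the cells, IGFBP3 was the leading gene of the 5 in 37.2%, 40.9% and 22.2% of the baboon fibroblasts and in 15.3%, 1.61% and 1.69% of the macaque fibroblasts. RARRES2 was the leading gene in 41.9%, 28.8% and 29.8% of the macaque fibroblasts and C7 in 14.4%, 47.6% and 43.4%. By their leading genes the name C7 and IGFBP3 therefore described the baboon fibroblasts, while those of the first macaque were led by RARRES2 and those of the second by C7 and RARRES2.

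Shares of cells were compared after every barcode was thinned at random to 1000 UMIs. IGFBP3 was then seen in 73.96, 74.7 and 68.6% of the baboon fibroblasts and in 51.4, 11.3 and 11.2% of the macaque fibroblasts. Sertoli comparison barcodes were set beside the fibroblasts. They held a UMI of at least 2 of SOX9, DHH, FATE1, CLDN11 and CITED1 and none of the 6 stromal genes. That choice leaves out barcodes with stromal free RNA. Whether a gene seen in the Sertoli comparison barcodes came from free RNA was not tested. There IGFBP3 was seen in 0.724, 0.528 and 0.885% and 2.40, 0.583 and 0.802%. C7 was seen in 61.9, 63.03 and 80.1% of the baboon fibroblasts and 57.97, 70.9 and 68.6% of the macaque fibroblasts, against 0.145, 0.132 and 0.885% and 1.77, 3.26 and 3.32% of the Sertoli comparison barcodes. RARRES2 differed from both: it was seen in 63.99, 61.3 and 62.3% of the baboon fibroblasts against 0.724, 0.528 and 1.50% of the Sertoli comparison barcodes, but in 80.2, 63.2 and 63.7% of the macaque fibroblasts against 31.3, 35.8 and 39.1%. In the macaques RARRES2 was thus not particular to the fibroblasts, although it gave 36.4%, 34.6% and 36.2% of the first sum there. These 3 genes helped to choose the fibroblasts, and the Sertoli comparison barcodes were chosen to hold no UMI of the stromal genes, so that the shares describe both sets without testing a difference. The Sertoli comparison barcodes numbered 1382, 758 and 1130 in the baboons and 793, 858 and 873 in the macaques, with median depths before thinning of 2850.5, 2814.5 and 8602.5 UMIs and of 1941, 1941 and 1844 UMIs.

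Fibroblasts near the rule's threshold held less DCN than those far from it in every library, most clearly in the baboons and the first macaque. The first sum exceeded the second by exactly 1 UMI in 68, 43 and 156 baboon fibroblasts and in 297, 493 and 524 macaque fibroblasts. DCN was at 2303, 1555 and 601 CPM in these baboon barcodes, at 693, 455 and 528 CPM in those where the sums were equal, and at 4357, 4968 and 2794 CPM in fibroblasts with a margin of 5 or more. It was at 1810, 2682 and 1091 CPM in the 43, 19 and 90 baboon barcodes where the second sum was higher by 1. In libraries 1B and 2 the fibroblasts nearest to the threshold thus held less DCN than the stroma nearest to it on the other side. In the macaques DCN was at 3651, 2576 and 2377 CPM with a margin of 1, at 3482, 2538 and 2509 CPM with equal sums, at 3936, 2354 and 2802 CPM where the second sum was higher by 1, and at 7024, 2953 and 3137 CPM with a margin of 5 or more. AMH, the Sertoli cell hormone, was at 2517, 2764 and 6266 CPM in the baboon fibroblasts with a margin of 1 and at 1607, 1794 and 3257 CPM in those with a margin of 5 or more, and at 2474, 452 and 721 against 1429, 508 and 497 CPM in the macaques. It was thus higher near the threshold in all libraries but 2A.

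The name fibroblast was set beside 10 markers that the rule did not use (LUM, PDGFRB, COL1A2, COL6A1, COL6A3, FBLN1, DPT, MFAP4, SFRP1 and CCDC80). For this and all tests below, UMIs were summed per animal and fitted with edgeR's quasi-likelihood test across all genes, with p-values adjusted over all genes by the Benjamini-Hochberg method. The fibroblasts and the compared barcodes come from the same animals, so each result is also given with the animal as a block. The groups were formed from counts in the same cells, so that the tests cover genes outside the rule only and say how far the difference repeated between 2 animals. Against all other baboon barcodes, 388 genes were higher without the block (2.31% of 16769 tested) and 1 was lower (0.00596%). With the block 1839 genes were higher (11.0%) and 1025 lower (6.11%). Against all other macaque barcodes none of 12576 genes was called without the block in either direction (0.0%), while 1321 had an unadjusted p under 0.05 and DESeq2 called 239. With the block 1005 macaque genes were higher (7.99%) and 1293 lower (10.3%). With barcodes of at least 2000 UMIs, or with library totals in place of trimmed-mean (TMM) scaling, none of the baboon genes was called without the block. Counts of listed genes below are from the fit with the block unless given as without it, and without it no macaque gene was called. With the block and library totals the baboon calls split into 1888 higher and 1682 lower. The balance turned in other settings with the block. The macaque calls split into 547 higher and 387 lower with at least 2000 UMIs. Against all other barcodes whatever their UMIs they split into 1534 higher and 1518 lower. The baboon calls split into 3193 higher and 3272 lower without barcodes that held a UMI of at least 2 Sertoli genes and of at least 2 stromal genes. With no filter on low counts they split into 2081 higher and 2129 lower. Below, a number in parentheses after a gene is its log2 fold change in the fit with the block, with ± its standard error where given, and where both species are given the baboon value comes first. Genes given as the highest or lowest are those changed alike in each library and at 50 CPM or more in the higher group.

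Of the 10 markers, 8 were higher in the baboon fibroblasts without the block and 10 with it, and 10 of 10 were higher in the macaque fibroblasts with the block. Their summed level was 2195, 2221 and 1759 CPM in the baboon fibroblasts against 76.8, 82.2 and 187 CPM in the other barcodes, and 2363, 2783 and 2876 against 506, 1130.3 and 1036 CPM in the macaques. The median log2 fold change of the 10 without the block was 4.19 in the baboons and 1.74 in the macaques, while the median over all tested genes was -0.05 and -0.02. The rule asked for stromal genes, so higher stromal markers than in all other barcodes do not tell fibroblasts from other stroma. Against the DLK1 and STC1 stroma, with the block, 5 of the 10 were higher in the baboons. In the macaques 3 were higher and 1 lower. COL1A2, a chain of type I collagen and the most abundant of the 10, was at 749, 827 and 654 CPM in the baboon fibroblasts against 14.03, 18.2 and 55.1 CPM, and at 759, 545 and 560.4 against 152, 302 and 302 CPM in the macaques. The 2 groups did not overlap in either species, and the gap was narrower in the macaques, whose other barcodes held more COL1A2 than those of the baboons.

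Among genes outside the rule, the 10 with the highest fold changes in the baboon fibroblasts without the block included RSPO3, LVRN and NTRK2. RSPO3, an R-spondin that strengthens WNT signalling, was at 139, 134 and 119 CPM in the fibroblasts and at 0.706, 1.40 and 5.11 CPM in the other barcodes (log2 fold change 5.50 ± 0.78, adjusted p = 0.0377 without the block; 0.000184 with it). All 3 libraries of fibroblasts lay far above all 3 libraries of other barcodes. LVRN (laeverin, a membrane aminopeptidase) was at 47.6, 72.9 and 89.03 CPM against 0.565, 0.413 and 2.39 CPM (log2 fold change 5.74 ± 0.73, adjusted p = 0.0324; 7.12e-05 with the block). NTRK2, the receptor of brain-derived neurotrophic factor, was at 343, 348 and 229 CPM against 7.15, 7.02 and 12.2 CPM (log2 fold change 4.96 ± 0.40, adjusted p = 0.0286; 7.80e-05 with the block).

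KCNJ3, an inward-rectifier potassium channel, was higher by a log2 fold change of 5.43, and ENTPD2, an ectonucleotidase that splits extracellular ATP, by 5.01. The matrix genes SRPX, OGN (osteoglycin), ISLR and DPT (dermatopontin) were higher by 5.42, 5.28, 5.08 and 4.93, and C1S, a protease of the classical complement pathway, by 5.03. The adjusted p of these 10 genes lay between 0.0286 and 0.0377 without the block, and it rose to between 0.061 and 0.126 when barcodes of at least 2000 UMIs were used. With the block EDIL3, a secreted integrin ligand, and MFAP4, a protein of elastic fibres, joined the 10 with the highest fold changes, at 4.88 and 4.86. In all of these the fibroblasts of each library lay above the other barcodes of each library.

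The baboon gene that was lower without the block was HBB, the beta-globin gene, which marks red cells and shares reads with near-identical globin copies. It was at 0, 0 and 0.197 CPM in the fibroblasts and 100.4, 16.5 and 104 CPM in the other barcodes, and at 5.57, 50.7 and 5.57 CPM in free RNA. The fibroblasts held 0, 0 and 2 UMIs of it, so that no fold is given. With the block, SOX9, the transcription factor of Sertoli cells, was at 95.9, 79.2 and 124 CPM against 349, 358 and 241 CPM (log2 fold change -1.40 ± 0.26, adjusted p = 0.00812; 0.123 without the block). CAMSAP3, a protein of microtubule minus ends, the glycosyltransferase GALNT18 and PERP, a desmosomal protein of epithelia, followed at -1.36, -1.35 and -1.34, with adjusted p of 0.13 to 0.37 without the block.

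In the macaques the fold changes were smaller, and the calls needed the block. LUM (lumican, a small proteoglycan of collagen fibrils) was at 119, 27.4 and 31.3 CPM in the fibroblasts against 8.08, 5.72 and 8.01 CPM in the other barcodes (log2 fold change 3.06 ± 0.33, adjusted p = 0.00237 with the block). RSPO3 was at 133, 121 and 121 CPM against 10.7, 25.9 and 26.3 CPM (2.94 ± 0.28, adjusted p = 0.00205), and its level in the fibroblasts was nearly the same in all 3 libraries. INHBA, the subunit of activin A, was at 122, 46.7 and 43.2 CPM against 15.4, 13.3 and 9.79 CPM (2.52 ± 0.22, adjusted p = 0.00205). The first macaque was higher than the second for LUM and INHBA, and no library of fibroblasts overlapped the other barcodes for any of the 3 genes.

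PI15, a secreted peptidase inhibitor, HPGD, which degrades prostaglandins, NTRK2, and ALCAM, an adhesion molecule, were higher by log2 fold changes of 2.58, 2.46, 2.41 and 2.34 with the block. COL14A1, a fibril-associated collagen, CAPN6, a calpain without protease activity, and MFAP4 followed at 2.30, 2.26 and 2.22. The adjusted p of these 10 genes lay between 0.00205 and 0.0106 with the block and between 0.405 and 0.46 without it. The genes that were lower by most were HBB (-5.99), GLNC1 (-5.82), CYP17A1, an enzyme of androgen synthesis (-5.73), CST9L (-2.15) and TSTD1 (-2.17). CYP17A1 was at 3.24, 0.368 and 0.401 CPM in the fibroblasts and at 199, 4.36 and 8.61 CPM in the other barcodes, where the first macaque held most of it.

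**Figure D3:**
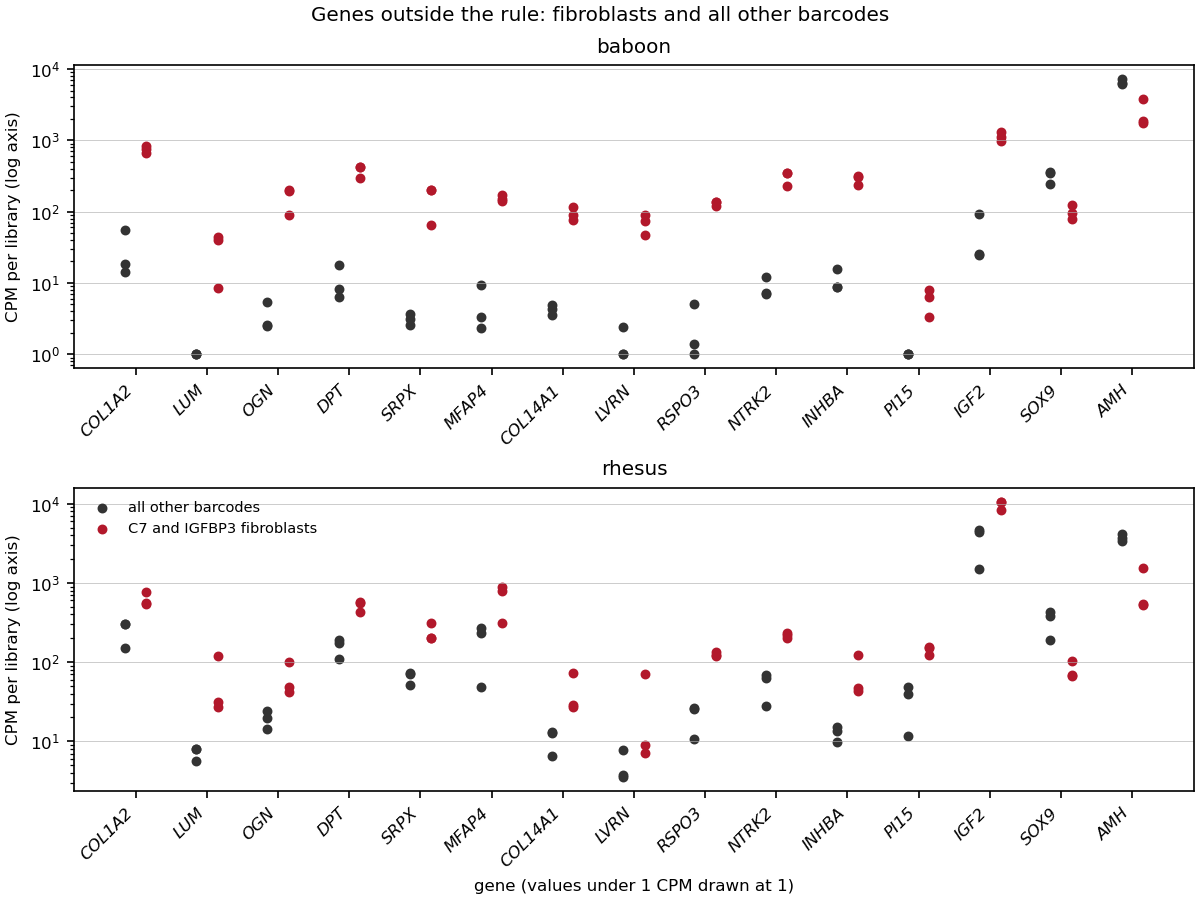
CPM of 15 genes outside the rule in fibroblasts and in all other barcodes, 1 point per library on a log axis with values under 1 drawn at 1, for the baboons and the macaques. RSPO3 sat at 119 to 139 CPM in the fibroblasts of all 6 libraries, and SOX9 and AMH were lower in the fibroblasts than in the other barcodes.

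Collagens and their proteoglycans were higher in the fibroblasts in most cases once the animal was a block. Of 9 fibrillar and fibril-associated collagen genes tested in the baboons, 6 were higher without the block and 8 with it, and none was lower. In the macaques 7 of 9 were higher with the block and none was lower. COL6A2, a chain of the microfibrillar type VI collagen, was at 529, 556 and 361 CPM against 12.5, 14.3 and 29.9 CPM in the baboons and at 665, 712 and 845 against 117, 285 and 287 CPM in the macaques. Of the small leucine-rich proteoglycans, 4 of 9 were higher in the baboons without the block and 8 with it, and 7 of 7 in the macaques with it. The medians without the block were 4.26 for the collagens and 3.73 for the proteoglycans in the baboons, and 1.63 and 1.95 in the macaques.

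Basement membrane genes were less uniform. With the block 7 of 13 were higher and 1 was lower in the baboons (4 and 0 without it), and 4 of 12 were higher in the macaques, with medians of 1.72 and 0.50 without it. NID1 (nidogen, which links laminin to collagen IV) was at 83.2, 89.2 and 73.4 CPM against 3.81, 4.79 and 8.31 CPM in the baboons (3.74) and LAMA2, a laminin chain of mesenchymal cells, was higher by 3.60. COL18A1 was lower in the baboons (-0.70), and COL4A2, the most abundant of the group there, was at 112, 104 and 138 CPM in the fibroblasts and 154, 168 and 156 CPM in the other barcodes without a call. Elastic fibre and matrix glycoprotein genes were higher in 11 of 16 cases in the baboons and in 10 of 18 in the macaques with the block, and in 6 of 16 in the baboons without it. FBLN2 (fibulin 2) was lower in the macaques (-1.50), at 42.7, 20.4 and 26.3 CPM against 100.1, 78.9 and 89.3 CPM. Matrix proteases and their inhibitors were higher in 10 of 13 and 6 of 10 cases (3 of 13 in the baboons without the block), among them with the block MMP2, a gelatinase (2.55 and 1.48), and PCOLCE, which speeds the processing of procollagen (4.35 and 2.02).

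**Figure D4:**
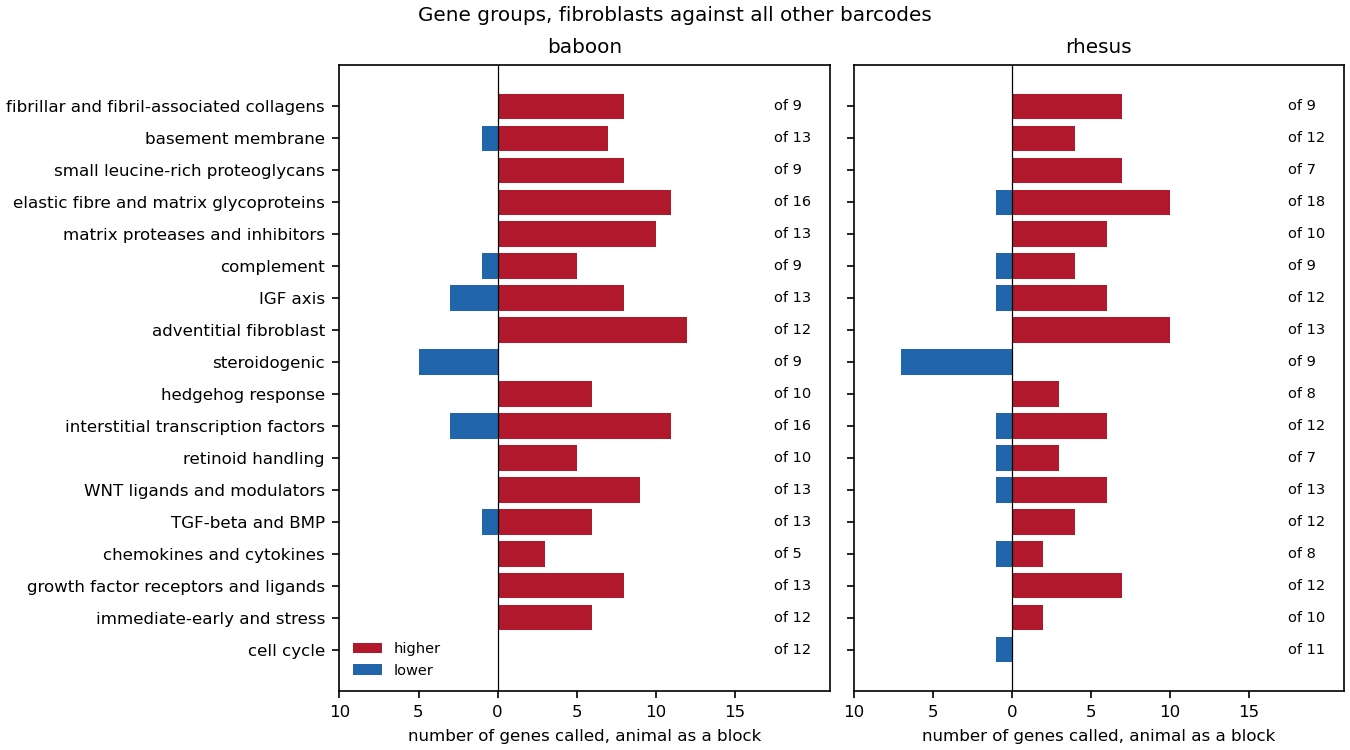
Number of genes of each group that were higher or lower in the fibroblasts than in all other barcodes with the animal as a block, beside the number tested, in baboons and macaques. Of the collagens 8 of 9 were higher in the baboons and 7 of 9 in the macaques, of the basement membrane genes 7 of 13 and 4 of 12, and the steroidogenic genes that were called lay only on the lower side.

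Around C7 itself, the early classical complement proteases were also higher. C1S was at 388, 419 and 123 CPM against 6.92, 9.66 and 8.70 CPM in the baboons and at 739.8, 354 and 352 against 119.7, 127 and 122 CPM in the macaques. C1R was higher by 3.86 and 1.93 with the block, and SERPING1, the inhibitor of both proteases, by 1.25 and 1.16. In all, 5 of 9 complement genes tested were higher and 1 lower in the baboons with the block and 2 and 0 without it, and 4 of 9 were higher and 1 lower in the macaques with the block, with medians of 0.74 and 1.26 without the block. The lower genes were CFI, the complement factor I protease, in the baboons (-0.96) and CLU (clusterin, which Sertoli cells also make) in the macaques (-1.69).

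Besides IGFBP3, which the rule used, IGF2, IGF1 and several carrier genes of the insulin-like growth factors were higher. IGF2, a growth factor of fetal and immature tissue, was at 1114, 992 and 1292 CPM in the baboon fibroblasts against 25.1, 25.02 and 91.6 CPM in the other barcodes (4.64 ± 0.34, adjusted p = 9.67e-05 with the block). In the macaque fibroblasts it was at 8258, 10629 and 10538 CPM against 1478, 4689 and 4387 CPM (1.89 ± 0.50, adjusted p = 0.0358 with the block). IGF1 was higher by 3.999 and 2.17, and the carriers IGFBP4, IGFBP5 and IGFBP6 by 3.44, 2.40 and 4.03 in the baboons and 1.11, 1.68 and 1.67 in the macaques. IGFBP2 went the other way in both species (-1.19 and -1.44), and the receptor IGF1R was lower in the baboons (-0.82). Of the list, 8 of 13 were higher and 3 lower in the baboons with the block and 6 and 0 without it, and 6 of 12 were higher and 1 lower in the macaques with the block, with medians of 2.30 and 1.08 without the block.

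Of the WNT ligands and modulators, 9 of 13 were higher in the baboons with the block and 3 without it, and 6 of 13 were higher and 1 lower in the macaques with the block (list medians 3.36 and 1.39 without it). SFRP1, which binds WNT ligands and holds them off their receptors, was at 124, 121 and 134 CPM against 6.17, 5.45 and 30.5 CPM in the baboons and at 359, 344 and 321 against 70.7, 106 and 93.6 CPM in the macaques. WNT5A, a ligand, was higher in the baboons (3.35) and WIF1, an inhibitor, was the gene that was lower in the macaques (-1.49). Of the TGF-beta and BMP genes, 6 of 13 were higher and 1 lower in the baboons with the block and 4 and 0 without it, and 4 of 12 were higher in the macaques with it. INHBA was at 308, 313 and 240.3 CPM against 8.75, 8.83 and 15.8 CPM in the baboons (4.56 ± 0.28, adjusted p = 7.59e-05 with the block). LTBP4, which tethers latent TGF-beta to the matrix, was higher by 3.54 and 1.92, and the co-receptor TGFBR3 by 3.42 and 1.76.

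Of the transcription factors of gonadal interstitial cells most were higher in the baboons and 6 of 12 in the macaques with the block, and WT1, GATA4 and GATA6, which Sertoli cells also carry, were not among them. Of 16 tested in the baboons 11 were higher and 3 lower with the block and 6 and 0 without it, and in the macaques 1 was lower beside the 6 that were higher (list medians 2.68 and 0.93 without the block). LHX9, a homeodomain factor of the early gonad, was at 201, 209.9 and 117 CPM against 4.05, 4.21 and 7.59 CPM in the baboons and 192, 58.1 and 51.6 against 26.3, 22.5 and 17.4 CPM in the macaques. NR2F1, a nuclear receptor, was higher by 4.04 in the baboons and by 1.94 in the macaques. EBF1 and OSR1 were higher in the baboons (3.68 and 3.79). WT1 was lower in both species (-0.97 and -1.49), and GATA4 and GATA6 were lower in the baboons (-0.58 and -0.87).

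Genes that respond to hedgehog ligands, which Sertoli cells release, were higher with the block in 6 of 10 cases in the baboons and 3 of 8 in the macaques, and without it in 2 of 10 in the baboons (list medians 1.92 and 0.86 without the block). GLI1, a target and effector of the pathway, was at 11.9, 11.3 and 6.70 CPM against 0.377, 0.330 and 1.70 CPM in the baboons and 5.80, 15.5 and 19.5 against 1.02, 6.12 and 6.53 CPM in the macaques. Retinoid handling genes were higher with the block in 5 of 10 cases in the baboons (1 of 10 without it), among them ALDH1A3, which makes retinoic acid (2.72), and in 3 of 7 in the macaques, where ALDH1A1 was lower (-1.001). Growth factors and their receptors were higher with the block in 8 of 13 and 7 of 12 cases (5 of 13 in the baboons without it), with the oestrogen receptor ESR1 (4.17 and 1.81) and the heparin-binding factor MDK (3.16 and 1.46) among them. Of the chemokine and cytokine genes, 3 of 5 were higher in the baboons with the block and none without it, and 2 of 8 were higher and 1 lower in the macaques, the last being CXCL14, at 0.112, 0 and 0.201 CPM against 1.65, 0.817 and 1.04 CPM. IL33, an alarmin cytokine, was higher in both species (3.94 and 0.98).

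Markers known from adventitial fibroblasts, which surround vessels, were higher as well: 6 of 12 in the baboons without the block and 12 with it, and 10 of 13 in the macaques with it. PI16 was at 47.6, 54.04 and 16.3 CPM against 3.58, 2.89 and 3.14 CPM in the baboons and 81.7, 25.6 and 29.5 against 29.5, 14.6 and 18.1 CPM in the macaques, and CD34 was higher in the macaques (0.92). Immediate-early genes, which rise within minutes of stress or dissociation, were higher with the block in 6 of 12 cases in the baboons and 2 of 10 in the macaques, and without it in none in either species. JUN was at 4644, 4428 and 8664 CPM in the baboon fibroblasts against 2340.3, 2288 and 3725 CPM, and at 6044, 4952 and 5088 against 1546, 2953 and 2872 CPM in the macaques (adjusted p = 0.0557 with the block). The part of dissociation in these values was not tested. None of 12 cell cycle genes was called in the baboons with or without the block, and in the macaques 1 of 11 was lower, PCNA, a clamp of DNA replication (-0.57).

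Steroidogenic genes lay on the lower side. None of 9 tested was higher in either species, 5 were lower in the baboons and 7 in the macaques with the block, and none was lower without it (list medians -0.93 and -1.69 without it). STAR, which brings cholesterol into mitochondria, was at 61.4, 51.3 and 58.2 CPM in the macaque fibroblasts against 128, 117 and 127 CPM and at 7.93, 11.3 and 11.7 against 13.2, 12.6 and 15.6 CPM in the baboons, the latter without a call. INHA, the inhibin alpha subunit and the most abundant of the list, was lower in both species (-1.25 and -1.87). INSL3, which the rule limited, was at 124, 43.2 and 45.6 CPM in the macaque fibroblasts and at 991, 429.9 and 570.0 CPM in free RNA.

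Sertoli cell markers were lower in the fibroblasts but far from 0. With the block 6 of 8 were lower in the baboons and 7 of 9 in the macaques, and without it none was called. Their summed level was 2126, 2212 and 4242 CPM in the baboon fibroblasts and 2856, 1376 and 1420.5 CPM in the macaque fibroblasts, against 7119.7, 7155 and 8034 CPM and 7065, 6878 and 7496 CPM in the other barcodes and 5838, 6778 and 5851 CPM and 4433, 5462 and 5787 CPM in free RNA. AMH (anti-Müllerian hormone), the most abundant, was at 1778, 1893 and 3815 CPM in the baboon fibroblasts and 1562, 527 and 534 CPM in the macaque fibroblasts. After thinning it was seen in 37.4, 39.95 and 40.7% of the baboon and 40.7, 15.98 and 16.6% of the macaque fibroblasts, against 98.4, 98.3 and 99.5% and 96.7, 97.7 and 97.02% of the Sertoli comparison barcodes. A UMI of at least 2 of the 5 Sertoli genes was held by 5.36%, 6.20% and 8.46% of the baboon fibroblasts and by 9.29%, 7.75% and 6.86% of the macaque fibroblasts, and 12.9%, 10.4% and 11.8% and 12.5%, 7.34% and 6.61% were marked as likely doublets. Over all barcodes with at least 1000 UMIs 7.30%, 4.02% and 6.04% in the baboons and 8.32%, 5.07% and 4.71% in the macaques were so marked, less than among the fibroblasts in every library. These overall shares were set in advance at 0.8% per 1000 barcodes of the library, and are not measured rates of doublets. The part of free RNA and doublets in the values above was not tested gene by gene.

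Germ cell markers summed to less in the fibroblasts than in the other barcodes of every library. The Leydig cell sums were lower as well, but they hold INSL3, which the rule limited, so that they do not test a difference. Germ cell markers summed to 45.98, 49.01 and 45.5 CPM in the baboon fibroblasts and 15.5, 18.8 and 13.8 CPM in the macaque fibroblasts, with 1 of 9 and 4 of 6 tested lower with the block and none without it. The most abundant of them was DAZL in the baboons, at 12.7, 5.03 and 12.1 CPM, and NANOS3 in the macaques, at 5.92, 5.52 and 7.83 CPM. Leydig cell markers summed to 216, 201 and 288 CPM and 346, 209.8 and 212 CPM against 338, 339 and 448 CPM and 4778, 1752 and 2381 CPM in the other barcodes, with 2 of 6 and 5 of 6 lower with the block and none without it. Their most abundant gene in the fibroblasts was FDX1, a ferredoxin that other cells also carry.

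Pericyte markers summed to 57.9, 56.6 and 48.5 CPM and 66.9, 91.3 and 93.7 CPM, RGS5 being at 0 by the rule, and with the block 2 of 7 were higher and 2 lower in the baboons and 1 higher and 2 lower of 7 in the macaques, while none was called without it. Peritubular myoid markers, the genes of the contractile cells around the tubules, summed to 194, 205 and 161 CPM and 548, 317 and 407 CPM against 121, 114 and 159.6 CPM and 419.8, 525 and 569.8 CPM in the other barcodes. The fibroblasts thus held more of their RNA in the first baboon and the first macaque, about the same in the second baboon and less in the second macaque. MYH11, a smooth muscle myosin, was the most abundant of them and was higher than in the other barcodes (2.86 and 1.02 with the block), while ACTA2, their defining actin, was at 8.72, 11.3 and 2.46 CPM in the baboon fibroblasts and 86.5, 44.9 and 71.5 CPM in the macaque fibroblasts. In all, 2 of 9 myoid markers were higher and 1 lower in the baboons (1 and 0 without the block), and 3 were higher and 3 lower of 9 in the macaques.

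Endothelial markers summed to 69.8, 151 and 46.04 CPM in the baboon fibroblasts, with no call among 10 tested, and to 9.71, 286 and 211 CPM in the macaque fibroblasts, with 2 of 9 lower. The second macaque thus carried more endothelial RNA in these barcodes than the first, as it did in the other barcodes, at 61.01, 441 and 450.4 CPM, and in free RNA, at 36.1, 144 and 137 CPM. CLDN5, the most abundant marker there, was at 3.24, 64.6 and 58.2 CPM. Macrophage markers summed to 26.2, 8.80 and 57.6 CPM and 75.6, 57.4 and 230.4 CPM, with none of 9 called in the baboons and 9 of 10 lower in the macaques. Their most abundant gene in the macaques, LYZ, was at 7.14, 15.3 and 137 CPM, high in library 2B alone. Lymphoid, glial, mesothelial or rete, and erythroid lists summed to 26.2, 17.6 and 7.30, 47.6, 47.8 and 144, 34.1, 42.7 and 56.4 and 0, 1.26 and 0.197 CPM in the baboon fibroblasts, in the order of the libraries for each list. In the macaque fibroblasts they summed to 16.97, 6.07 and 7.43, 19.9, 68.3 and 68.4, 41.3, 12.7 and 18.9 and 7.92, 47.7 and 9.63 CPM. Of the glial list, the defining gene SOX10 was at 0, 0 and 0 CPM in the baboon fibroblasts.

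The closest cells were the DLK1 and STC1 stroma, which passed the same stromal filter and differ by the rule's second step. Without the block none of 11414 baboon genes and none of 11202 macaque genes was called in either direction (0.0% each), while 229 and 304 had an unadjusted p under 0.05 and DESeq2 called 16 and 25. With the block 169 genes were higher (1.48%) and 102 lower (0.894%) in the baboon fibroblasts, and 183 higher (1.63%) and 305 lower (2.72%) in the macaque fibroblasts. The calls that follow are therefore those of the fit with the block, and without it no gene named had an adjusted p below 0.651 in the baboons or below 0.752 in the macaques. With library totals in place of TMM scaling the baboon calls split into 204 higher and 200 lower. The DLK1 and STC1 stroma held 123, 75 and 456 baboon and 460, 507 and 460 macaque barcodes, so that its levels of low genes rest on few UMIs.

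RSPO3 and INHBA were among the secreted signals that were higher than in this stroma in both species. RSPO3 was at 23.3, 31.5 and 35.9 CPM in the baboon DLK1 and STC1 stroma, below the 139, 134 and 119 CPM of the fibroblasts (1.94 ± 0.19, adjusted p = 1.78e-07, and 0.0563 where the sums had to differ by 5 or more). In the macaques it was at 16.4, 52.8 and 54.7 CPM against 133, 121 and 121 CPM (1.80 ± 0.25, adjusted p = 0.000419). The groups did not overlap in either species. INHBA was at 83.3, 83.9 and 94.8 CPM in the baboon stroma against 308, 313 and 240.3 CPM in the fibroblasts (1.58 ± 0.17, adjusted p = 4.59e-07), and at 38.2, 26.9 and 18.97 against 122, 46.7 and 43.2 CPM in the macaques (1.38 ± 0.20, adjusted p = 0.000471).

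In the baboons the calcium-binding proteins S100A6 and S100A4 had the highest fold changes over this stroma. S100A6 was at 603, 682 and 242 CPM in the fibroblasts against 66.6, 62.9 and 33.99 CPM (3.07 ± 0.18, adjusted p = 2.03e-11). LVRN, COL14A1 and KCNJ3 were higher by 2.94, 2.82 and 2.10. ADIRF, an adipogenesis factor, CAVIN2, a coat protein of caveolae, and the transcription factor OSR2 were higher by 1.97, 1.91 and 1.74. The libraries of fibroblasts lay above those of the stroma in each of these genes.

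In the macaques CFD (complement factor D, the protease that starts the alternative pathway) had the highest fold change, 3.33 ± 0.33, adjusted p = 7.73e-06. It was at 279.6, 12.1 and 17.1 CPM against 19.1, 6.71 and 4.46 CPM, so that the first macaque carried most of the difference. ALCAM, CAVIN2, PI15, HPGD and APOA1, an apolipoprotein, were higher by 1.33, 1.27, 1.24, 1.11 and 1.01. TGFBR2, a receptor of TGF-beta, was at 20.8, 95.5 and 80.7 CPM against 20.02, 25.9 and 26.8 CPM (1.25), with the first macaque alike in both cell groups. LUM was at 119, 27.4 and 31.3 CPM against 26.4, 21.1 and 31.3 CPM (1.21), a difference seen in the first macaque and not in library 2B. APOA1 was also at 1626, 1079 and 1049 CPM in the Sertoli comparison barcodes.

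More genes were higher than lower against the DLK1 and STC1 stroma in the baboons and fewer in the macaques, but this balance turned with the settings. With at least 2000 UMIs the baboon calls split into 51 higher and 83 lower, and with no filter on low counts the macaque calls split into 444 higher and 347 lower. In the baboons WFDC1, a secreted protein of the whey acidic family, was at 32.5, 26.4 and 4.73 CPM against 160.0, 152 and 71.8 CPM (-3.12 ± 0.25, adjusted p = 5.51e-09). PTCH1, the hedgehog receptor and itself a target of the pathway, was at 22.99, 27.6 and 20.2 CPM against 66.6, 57.7 and 77.5 CPM (-1.72 ± 0.20, adjusted p = 3.13e-06). None of 7 hedgehog genes was called in the macaques. PTTG1 (securin), the neurofilament gene NEFL and the nuclear import gene KPNA2 had log2 fold changes of -2.43, -1.65 and -1.44.

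In the macaques TKTL1, a transketolase-like protein, the chromatin protein HMGA1 and CALB2 (calretinin) had log2 fold changes of -3.46, -2.31 and -2.29, and CKS2, a cyclin-dependent kinase subunit, and KPNA2 of -1.99 and -1.91. HMGA1 and CKS2 were not called in barcodes with at least 4 stromal genes, where HMGA1 turned to 1.68 (adjusted p = 0.144). Of the cell cycle list 5 of 11 were lower in the baboons and 2 of 11 in the macaques, TOP2A and CENPF in both. BGN (biglycan) was lower in both species, at 67.4, 57.8 and 27.7 CPM against 153, 115 and 69.4 CPM in the baboons (-1.18 ± 0.17, adjusted p = 5.15e-05) and at 171, 89.6 and 93.9 against 421, 200.5 and 229.9 CPM in the macaques (-1.22 ± 0.12, adjusted p = 7.11e-06). TGFBI, a matrix protein induced by TGF-beta, was lower in both as well (-1.55 and -1.71), as was MATN2, a matrilin (-1.33 and -1.45). STAR (-1.49 and -0.70) and the retinoic acid enzyme ALDH1A3 (-1.24 and -0.87) were also lower.

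**Figure D5:**
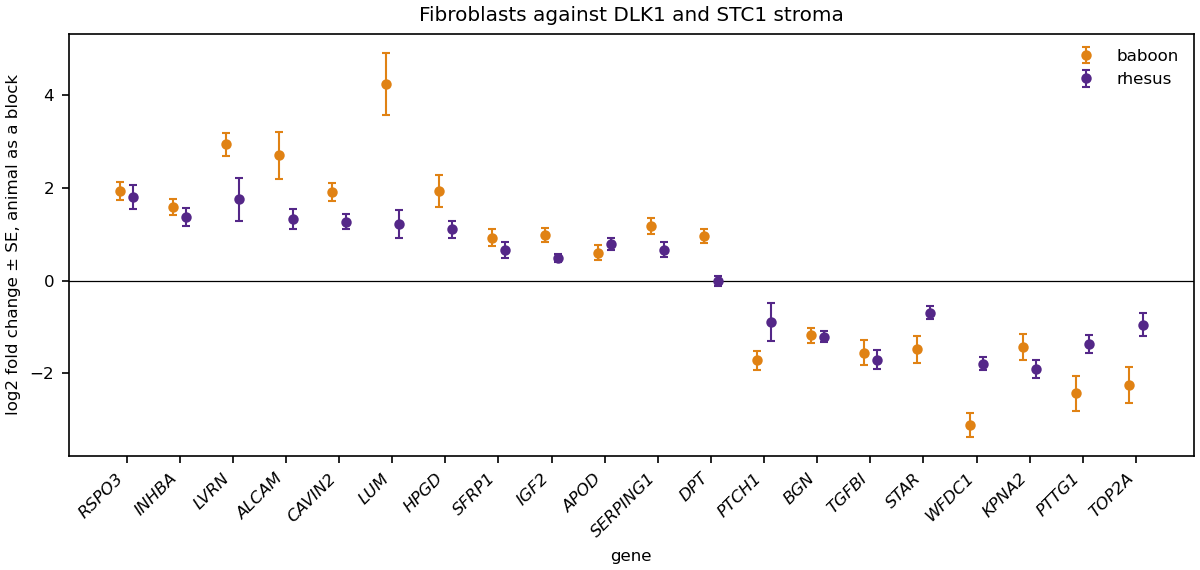
Log2 fold change between fibroblasts and DLK1 and STC1 stroma with the animal as a block for 20 genes, baboons and macaques side by side; error bars are standard errors, and every value but those of DPT and PTCH1 in the macaques passed an adjusted p of 0.05. The baboon value of LUM rests on a stroma level of 0, 0 and 0.957 CPM. RSPO3 and INHBA lay above 1 in both species, and BGN and TGFBI lay below -1 in both.

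Genes of several groups were higher than in the DLK1 and STC1 stroma with the block, and the groups were not tested against each other. No hedgehog response or retinoid handling gene was higher in either species, and in the macaques no collagen, basement membrane, interstitial transcription factor or chemokine and cytokine gene was. Of the 10 fibroblast markers outside the rule 5 were higher in the baboons, and 3 were higher and 1, PDGFRB, lower in the macaques. Collagens were higher in 3 of 8 cases in the baboons and in none of 9 in the macaques, and basement membrane genes in 1 of 13 and in none of 11, where 2 were lower. Small leucine-rich proteoglycans were higher in 4 of 7 cases in the baboons and 2 of 7 in the macaques, with BGN lower in both. Complement genes were higher in 4 of 8 and 3 of 9 cases, among them SERPING1 (1.18 and 0.67) and, in the macaques, CLU, which is also a Sertoli marker, and adventitial markers in 5 of 11 and 4 of 12, among them APOD, a lipid-binding apolipoprotein (0.60 and 0.79). Of the IGF genes 3 of 11 were higher in the baboons, and 2 were higher and 2 lower of 10 in the macaques. IGF2 was higher in both (0.98 ± 0.16, adjusted p = 0.000249 and 0.48 ± 0.09, adjusted p = 0.00493), and IGFBP4 and IGFBP7 were lower in the macaques.

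Markers of other cells moved in part of this comparison. In the macaques 4 of 9 Sertoli markers were higher in the fibroblasts than in the DLK1 and STC1 stroma, which summed to 1827, 919.9 and 843 CPM against 2856, 1376 and 1420.5 CPM. In the baboons none of 7 was called and the sums were 2063, 2282 and 4266 CPM against 2126, 2212 and 4242 CPM. Of the endothelial markers 3 of 8 were higher in the macaque fibroblasts and none of 6 was called in the baboons. Their sums were 9.71, 286 and 211 CPM in the macaque fibroblasts against 32.8, 60.4 and 24.6 CPM in the stroma. The sum was thus higher in the second macaque alone and lower in the first. Of the myoid markers 3 of 9 were lower in the macaques, ACTA2, MYH11 and TAGLN, and none of 5 was called in the baboons. Germ cell markers summed to 45.98, 49.01 and 45.5 CPM in the baboon fibroblasts against 293, 226 and 55.05 CPM in this stroma, with none of 5 called, and to 15.5, 18.8 and 13.8 against 54.6, 96.9 and 36.8 CPM in the macaques, where MAEL and DND1 were lower of 4 tested. The stroma thus held more germ cell RNA in every library, least so in the second baboon. Of the Leydig markers 2 of 5 were lower in each species, STAR and HSD3B2 in the baboons and STAR and HSD3B1 in the macaques. Of the mesothelial or rete list 1 of 4, CALB2, was lower in the macaques and none of 2 was called in the baboons. The part of these cells in the other differences, such as the lower PTTG1, KPNA2, CKS2 and HMGA1, was not tested.

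Several genes were called in the same direction in both species. Against all other barcodes 10160 genes were tested in both, and 608 were higher in both, which is 49.4% of the 1232 higher in the baboons and 70.3% of the 865 higher in the macaques. Those lower in both numbered 455, or 59.1% of 770 and 44.0% of 1034. Against the DLK1 and STC1 stroma 42 of 8256 genes were higher in both (32.8% of 128 and 30.4% of 138) and 35 lower in both (58.3% of 60 and 19.7% of 178). The 42 included RSPO3, INHBA, CAVIN2, ALCAM, HPGD, LUM, NTRK2, S100A6, SFRP1, SERPING1, APOD and IGF2. Opposite calls were made for 6 genes against all other barcodes and for 1 against the stroma, EDIL3, which was higher in the baboons (1.02) and lower in the macaques (-1.03).

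The fibroblasts also differed between the 2 animals of a species, which is given as values since each animal stands alone. Over 2-fold differences between the animals were seen in 190 of 1530 baboon genes (12.4%) and 186 of 1491 macaque genes (12.5%) with at least 100 CPM in 1 animal. In the macaques, GPX3, an extracellular antioxidant enzyme, was at 220.4 CPM in the first animal's fibroblasts and 8.35 CPM in the second's, IGFBP6 at 1454 and 211 CPM, and S100A4 at 347 and 43.9 CPM. The second macaque was higher in POSTN (periostin, a matrix protein of growing connective tissue), at 3.13 and 308 CPM, in VCAN (versican), at 7.81 and 132 CPM, and in PTN (pleiotrophin), at 30.9 and 313 CPM. FKBP5 and TSC22D3, which glucocorticoids induce, were at 24.0 and 208 CPM and at 196 and 1150.1 CPM. Other barcodes moved the same way: FKBP5 was at 26.4 and 150.4 CPM and POSTN at 0.549 and 79.6 CPM in them.

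In the baboons several ribosomal protein genes and JUND differed between the animals in all cells. RPS20 was at 3940.3 and 299 CPM in the fibroblasts of the first and second baboon and at 4768 and 391 CPM in the other barcodes, and JUND was at 245 and 4620 CPM and at 225 and 2485 CPM. For these, the kit version and the animal cannot be told apart. S100A4 and SNAI2, a transcription factor of mesenchymal cells, were higher in the first baboon's fibroblasts, at 129.8 and 28.6 CPM and at 134 and 30.1 CPM, while the other barcodes held 9.47 and 12.7 CPM and 4.23 and 4.30 CPM. S100A4 was thus higher in the first animal's fibroblasts in both species, and the other barcodes differed that way in the macaques alone, at 113 and 32.0 CPM.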

How the data were processed

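Testis cells of 2 baboons and 2 rhesus macaques were profiled in 6 droplet libraries. The deposited files hold UMI counts per gene and barcode for all barcodes, not normalized by the authors. The submitters' processing notes name Cell Ranger 3.1.0 and Seurat 3.2.3, and the builds were Panubis1.0 and Mmul_10. The members and all gene lists were chosen with earlier results of these data known. Several lists share genes with each other, and a list gene that the rule used was left out of its counts.

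Counts were summed per animal and cell group (2 animals per species, no more replicates) and fitted per species with edgeR 4.0.16 (quasi-likelihood, TMM, genes filtered on low counts, Benjamini-Hochberg adjustment at 0.05). The animal was added as a block because both cell groups come from the same animals. Deviations from the group means correlated at 0.600 and 0.661 in the baboons and 0.735 and 0.685 in the macaques (other barcodes, then DLK1 and STC1 stroma). In data simulated from each of these 4 comparisons in the same order, 200 genes were changed by 2 on the log2 scale. The fit without the block found 84%, 85%, 95% and 89% of them. The simulated data held a fixed spread and no difference between animals shared by both cell groups. These shares therefore do not give the power in the real data, and the fit with the block was not simulated. DESeq2 1.42.0 was an alternative. P-values measure the spread between 2 animals only, and intervals cover counting error only. Named genes were the 10 highest and 5 lowest log2 fold changes among genes called, changed the same way in each library and at 50 CPM or more in the higher group, without rule genes. Some genes that this rule or the lists would name are not reported here. Genes of the fixed lists and those called in both species were added after their values were seen. Likely doublets were marked by simulated neighbours, in a number set by the count of barcodes, and kept in the main analysis. A gene that one species' table does not list by symbol was not analysed here in that species. RefSeq's Mmul_10 annotation gave macaque coordinates and the Panubis1.0 gene table those of the baboon. Python 3.11.15 and R 4.3.3 were used.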

Additional observations from a re-analysis of the deposited data

Results flagged for a closer look

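DPT (dermatopontin), a small matrix protein, differed between the fibroblasts and the DLK1 and STC1 stroma in the baboons and not in the macaques. In the baboons it was at 420.1, 421 and 298 CPM in the fibroblasts against 197, 210 and 173 CPM in the stroma, a log2 fold change of 0.96 in edgeR's fit with the block (adjusted p = 0.000218), and each library was higher in the fibroblasts. In the macaques it was at 426, 552 and 577 CPM against 456, 558 and 577 CPM, a log2 fold change of -0.01 (adjusted p = 0.99), and no library was clearly higher in either group. The difference between the species was not tested.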

How the results depend on the processing

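Baboon fibroblasts against all other barcodes gave 389 calls without the block. The number was 2864 with the replicate block, 1058 with DESeq2, 2159 with libraries as samples, 126 against all other barcodes whatever their UMIs, 674 without marked doublets, 1451 without mixed barcodes, 0 with at least 2000 UMIs, 0 with library totals in place of TMM, and 292 to 367 with single libraries left out. With the block it rose from 2864 to 6465 without mixed barcodes. Those are barcodes with a UMI of at least 2 Sertoli genes and of at least 2 stromal genes. Against the DLK1 and STC1 stroma the baboons gave 0 calls without the block, 271 with the replicate block, 16 with DESeq2, 11 with libraries as samples and 59 with no filter on low counts. With the block the number became 18 where the sums differed by 5 or more, 134 at 2000 UMIs, 443 without marked doublets and 541 without RARRES2 in the first sum, and 188 to 276 with single libraries left out.

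Macaque fibroblasts against all other barcodes gave 0 calls without the block, 2298 with the replicate block, 239 with DESeq2 and 774 with libraries as samples, and the blocked number became 934 at 2000 UMIs and 1407 without marked doublets. Against the DLK1 and STC1 stroma they gave 0 calls without the block, 488 with the replicate block, 25 with DESeq2, 5 with libraries as samples and 13 with no filter. With the block this became 219 with at least 4 stromal genes, 55 where the sums differed by 5 or more, 934 at 2000 UMIs, 791 with no filter and 122 without RARRES2, and 330 to 503 with single libraries left out. The mean macaque share of 44.3% became 14.9% with at least 4 stromal genes, 22.5% where the sums differed by 5 or more, 38.7% at 2000 UMIs, 35.7% at 500 UMIs and 35.9% without RARRES2. The mean baboon share of 23.2% became 14.5% with at least 4 stromal genes and 14.3% at 2000 UMIs, where the first baboon went from 7.60% to 3.44%. The causes were not tested.

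Of 688 alternative values of the 60 genes named with the block, 617 kept their direction and call, 70 lost the call and 1 reversed, HMGA1 in the macaques against the DLK1 and STC1 stroma, at 1.68 with at least 4 stromal genes. Of 165 values of the 11 genes named without the block, 27 lost the call and 138 did not, and none reversed. The 138 include the values without baboon library 2, which leave 1 animal and have no p-value, so that they kept the direction only. The animals pair the samples, so the block belongs to the design. With 2 animals per species no fit can leave one out. The shallow baboon fibroblasts and the 75 barcodes of baboon stroma in library 1B limit what can be said of low genes.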
